A study of Macaca mulatta with 8 samples.

Results

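CC chemokines are small secreted proteins that bind G protein-coupled receptors on leukocytes and direct their migration. The 10 CC chemokine genes described here are CCL1, CCL2, CCL3, CCL5, CCL7, CCL8, CCL19, CCL20, CCL22 and CCL24, chosen by gene symbol among the 35432 genes in the count tables of cultured rhesus macaque microglia. All 10 had a row, and 9 of them passed the filter on low counts, which kept 12131 genes for testing. CCL1 did not pass it and is described by its counts. Each gene was compared within animals between cells exposed to ultrapure lipopolysaccharide (uLPS), an agonist of the receptor TLR4, and cells that received the P2RY6 antagonist MRS2578 before uLPS. P2RY6 is a receptor for extracellular UDP.

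Microglia are macrophages that reside in the brain. In inflamed tissue, macrophages and microglia make many CC chemokines once Toll-like receptors signal through NF-κB and interferon regulatory factors. Family members differ in the cells they attract, because each binds its own set of CC receptors. CCL2, CCL7 and CCL8 are the monocyte chemoattractant proteins, CCL3 and CCL5 bind CCR1, and CCL20, CCL22, CCL19, CCL24 and CCL1 are ligands of CCR6, CCR4, CCR7, CCR3 and CCR8.

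The microglia came from subcortical white matter of 4 adult, outbred rhesus macaques (R07110, R12016, R02046 and R14143) that had no neurological disease. They were kept for 8 days without passaging in medium with serum and M-CSF, a macrophage growth factor. On day 7, one culture of each donor received 10 µg/mL uLPS for 16 h (group uLPS), and another received 5 µM MRS2578 for 1 h and then the same uLPS (group uLPS + MRS2578). All 8 libraries therefore carry uLPS, and no library shows the chemokine level of unstimulated cells. The study's methods state that DMSO, the solvent of MRS2578, was included as a control, while the sample labels do not mention it. MRS2578 is described there as selective but not fully specific for P2RY6.

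Libraries held 9231109 to 32790348 counts. The macrophage genes CSF1R and SPI1 were at 1007 to 1471 and 403 to 572 CPM (reads of a gene scaled to the size of its library) in all libraries, whereas the microglia markers TMEM119 (at most 0.316 CPM) and CX3CR1 (at most 2.21 CPM) were close to 0 and P2RY12 was at 5.70 to 13.3 CPM. Of 9 lymphocyte markers, CD8A was at 5.69 to 50.7 CPM and the other 8 were at most 0.696 CPM, among them CD3D, CD3E and CD3G, the T cell receptor complex genes, at most at 0.112 CPM. The summed level of the 9 was 6.25 to 50.2 CPM with uLPS and 6.21 to 51.3 CPM with MRS2578, and 4 neutrophil markers together reached at most 0.457 CPM. P2RY6 itself was at 52.6 to 98.5 CPM with uLPS and at 49.5 to 110 CPM with MRS2578 (log2 fold change -0.03, SE 0.13). This is a check of expression only, since the antagonist acts on the receptor protein.

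Libraries from 2 donors need a remark before the values. For R02046, the sample labels differ from a table of changed genes that accompanied the study. Each of the 8 CPM columns of that table was proportional to the counts of 1 library. Of these, 6 columns carried the condition of the sample label, and the 2 columns of R02046 carried the opposite one. Values below follow the deposited labels unless stated otherwise, and each test was also run with the R02046 libraries exchanged and without R02046. Exchange reverses the sign of every difference in R02046. For R12016, the differences between its 2 libraries were wider than in the other donors, with an SD over all genes tested of 0.70 on the log2 scale, against 0.46 to 0.53 in the others. Values of the 4 donors follow below in the order R07110, R12016, R02046, R14143.

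The name of the family refers to adjacent cysteines near the start of the mature protein. All 10 genes have a model in the RefSeq annotation of Mmul_10, the genome build of the study. Coding exon 2 holds the cysteine pair in each of them. The 30 coding bases around the pair are shown for the 7 genes on which the description below turns, 5′ to 3′ on the coding strand, with the 2 cysteine codons in capitals.
CCL2: gcccccgtcactTGCTGCtataacttcacc
CCL7: acttcaactaccTGCTGCtacagatttatc
CCL8: attccaatcaccTGCTGCtttaatgtgatc
CCL3: accccgacctccTGCTGCttcagctacatc
CCL5: gacaccacacccTGCTGCtttgcctacatt
CCL20: agcaactttgacTGCTGTcttcgatataca
CCL22: gaagacagcgtcTGCTGCcgtgattacgcc
On chromosome 16 these windows lie at chr16:30639189-30639218 for CCL2, chr16:30654073-30654102 for CCL7 and chr16:30691980-30692009 for CCL8, all on the plus strand, and at chr16:32446382-32446411 for CCL3 and chr16:32227633-32227662 for CCL5, both on the minus strand. The window of CCL20 is chr12:115256180-115256209 and that of CCL22 is chr20:44600015-44600044, both on the plus strand. Outside the cysteine codons, CCL3 matched CCL7 at 15 of 24 bases, CCL5 at 14 and CCL2 and CCL8 at 13 each, while CCL8 matched CCL7 at 14 and CCL2 at 13. CCL2 matched CCL7 at 11. CCL1 also lies on chromosome 16 (30737365 to 30739968, minus strand), while CCL19 is on chromosome 15 and CCL24 on chromosome 3. So 6 of the 10 genes share a chromosome.

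Sequence shared with other genes bears on the counts, because only uniquely mapped reads were counted. Of the 50-base windows in the RefSeq transcripts of CCL3, 11.3% also occurred in transcripts of 2 other gene models on chromosome 16. How far this changes the count of CCL3 was not measured. The share was 0.771% for CCL5 and 0.488% for CCL22, and no shared window was found for the other 7 genes. The models of CCL1, CCL2, CCL3, CCL8, CCL19 and CCL24 hold coding sequence only, so sequence outside it was not searched for these genes.

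Transcripts of 3 CC chemokines, CCL8, CCL3 and CCL2, were among the most abundant in these cells. Per kilobase of annotated exon, CCL8 was at 10769 ± 3612 CPM (SD, n = 4 donors) with uLPS, CCL3 at 8979 ± 1386 CPM and CCL2 at 8791 ± 552 CPM. They ranked 5, 6 and 7 among 15986 genes with a length. Ranges of these 3 genes overlapped, so their order among themselves is not resolved. CCL5 followed at 1514 ± 957 CPM per kilobase (rank 24), with all 4 libraries below those of the first 3 genes. CCL7 was at 112 ± 40 CPM per kilobase (rank 490), again with no overlap. The full gap between CCL5 and the first 3 genes depends on length. CCL5 has 1067 exonic bases, against 300 for CCL8, 279 for CCL3 and 300 for CCL2. Without division by length, CCL5 in the uLPS library of R12016 (3123 CPM) was above CCL3 (2940 CPM) and CCL2 (2782 CPM).

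The remaining genes were far less abundant. CCL24 was at 27.7 ± 30.0 CPM per kilobase with uLPS, CCL19 at 4.63 ± 6.49, CCL22 at 4.21 ± 5.69, CCL20 at 2.12 ± 1.36 and CCL1 at 1.18 ± 1.58. CCL24 ranked above the other 4 in every uLPS library, and its lowest level (9.88) was above the highest of CCL20 (4.02) and CCL1 (3.51), while its range overlapped those of CCL19 and CCL22. The order of the other 4 is not resolved. The place of CCL24 depends on length too. Without division by length, CCL22 was above CCL24 with uLPS in R07110 (4.60 against 4.51 CPM), R12016 (37.1 against 26.1) and R14143 (5.54 against 3.56). In R02046 it was below (1.92 against 5.66), and the highest CCL20 level (3.83 CPM) was above the lowest of CCL24. The RefSeq models of 6 genes (CCL1, CCL2, CCL3, CCL8, CCL19 and CCL24) hold coding sequence only, and the Ensembl models that were counted may be longer, in which case their levels per kilobase are overstated. Comparisons between conditions do not use length.

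Together, the 10 genes held 0.89%, 1.38%, 0.82% and 0.95% of the scaled counts with uLPS. With MRS2578, their share was 0.70%, 0.62%, 0.78% and 0.83%. It was lower in all 4 donors, most in R12016, and the groups overlapped only by the MRS2578 library of R14143 (0.83%) and the uLPS library of R02046 (0.82%). CCL2, CCL3, CCL5, CCL7 and CCL8 made up 99.3% to 99.9% of these counts in every library, so the sum describes these 5 genes. With the R02046 libraries exchanged, the share is higher with MRS2578 in that donor (0.82% against 0.78%). The share of all counts in protein-coding genes of the mitochondrial genome was also lower in all 4 donors, at 0.275%, 0.313%, 0.310% and 0.356% with uLPS and 0.187%, 0.187%, 0.298% and 0.337% with MRS2578, and its part in the chemokine values was not tested.

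**Figure D1:**
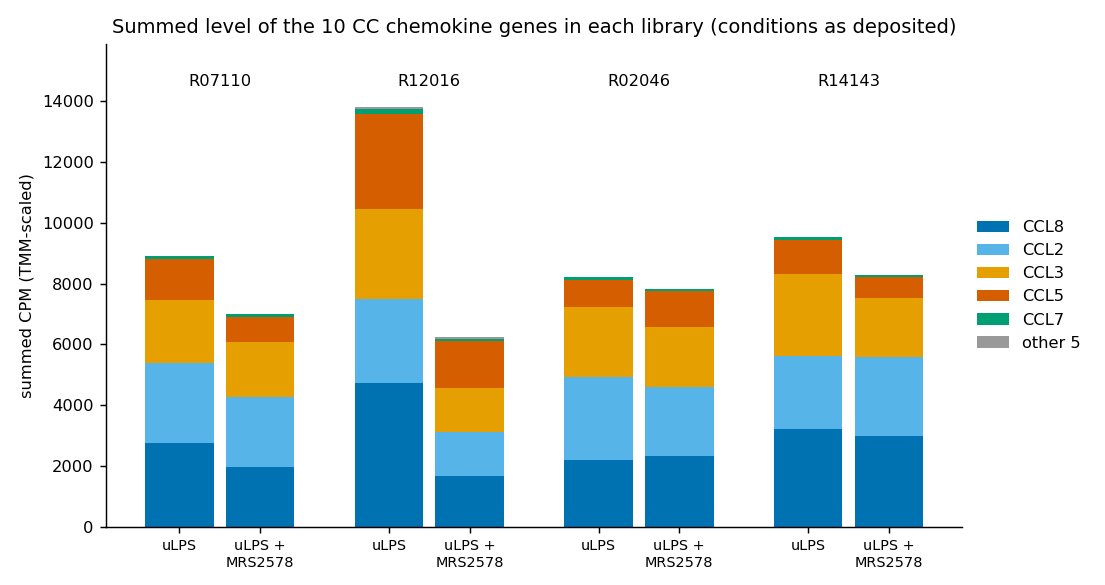
Summed level of the 10 CC chemokine genes in each library, in TMM-scaled CPM (vertical axis), stacked by gene and grouped by donor along the horizontal axis, with conditions as deposited. The tallest bar is the uLPS library of R12016 (13816 CPM) and the lowest is the MRS2578 library of the same donor (6229 CPM).

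No CC chemokine gene passed the test for MRS2578 at an adjusted p of 0.05 (edgeR's quasi-likelihood test, blocked by donor, 0 of 9). Of all genes tested, 0% passed it as well, although 624 of 12131 had an unadjusted p under 0.05. DESeq2's Wald test and edgeR's likelihood ratio test also called 0 of the 9. With the R02046 libraries exchanged the test called 75 genes, or 0.618% of all, and 0 of the 9. Without R02046 it called 0 of the 9 and 0% of 12295 genes.

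The direction was still uneven. By fitted value, 7 of the 9 genes were lower with MRS2578 and 2 were higher, with a median log2 fold change of -0.48 against -0.01 over all genes tested. That median was -0.36 with R02046 exchanged and -0.17 without R12016, against 0.00 and -0.01 over all genes. In each of R07110, R12016 and R14143, 6 of the 9 were lower (CCL3, CCL5, CCL7, CCL8, CCL20 and CCL22), where 19.8% of all genes were, and none was higher in all 3. Only CCL3 and CCL7 were lower in all 4 donors, where 6.49% of all genes were. One gene, CCL3, had an unadjusted p under 0.05 with a lower level, beside 2.44% of all genes. With R02046 exchanged, this held for 4 of the 9 (CCL5, CCL8, CCL20 and CCL22) beside 9.59% of all genes, and without R02046 for 6 of the 9 beside 7.86%. The 9 genes are not independent of each other, and their libraries come from the same 8 cultures. The direction is that of 7 of these 9 genes, and no comparison with other CC ligands as a set was run. Of 4 other CC ligand genes tested, 1 was lower and 3 were higher by fitted value. Their median was 0.14, and -0.02 without R12016. Of these 4 genes, 0 were lower and 0 higher in each of R07110, R12016 and R14143.

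Differences were unequal between donors. Over the 9 genes, the median difference was -0.19, -1.02, 0.08 and -0.34 in the 4 donors, where the medians over all genes tested lay between -0.02 and 0.00. The median was lowest in R12016. Fewer cells that make a chemokine and less of its RNA per cell cannot be told apart in these bulk libraries.

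**Figure D2:**
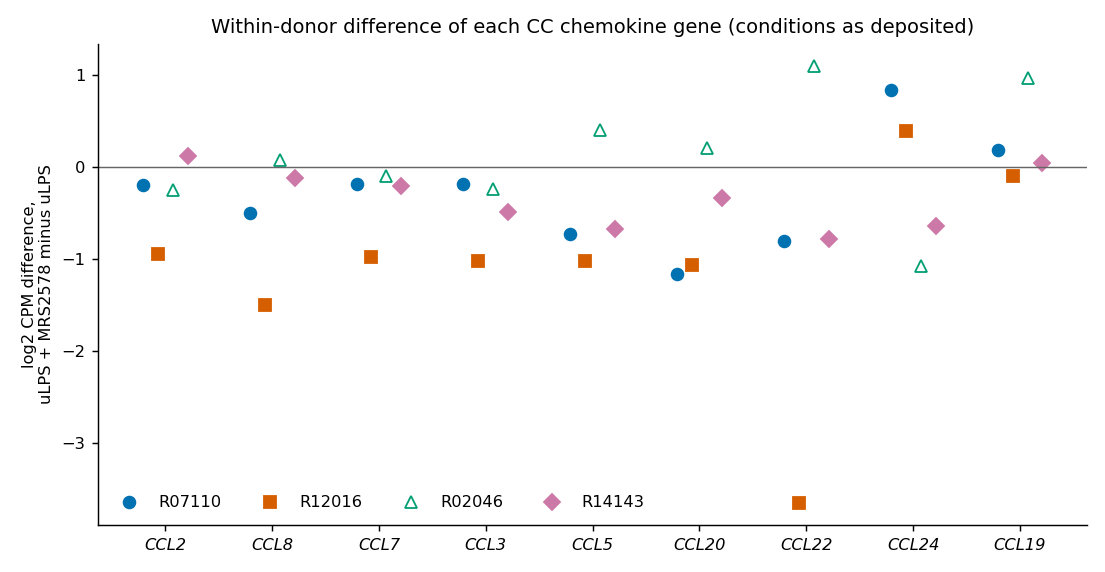
Difference in log2 CPM between the uLPS + MRS2578 and the uLPS library of each donor (vertical axis) for the 9 CC chemokine genes tested (horizontal axis), with one symbol per donor and an open triangle for R02046, whose conditions are uncertain. Squares of R12016 are the lowest points for CCL2, CCL8, CCL7, CCL3, CCL5, CCL22 and CCL19, and triangles lie above 0 for CCL8, CCL5, CCL20, CCL22 and CCL19.

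Among the monocyte chemoattractants, CCL2, the main ligand of CCR2, varied little between donors with uLPS. In the donor order given above, CCL2 was at 2631, 2782, 2729 and 2407 CPM with uLPS. After MRS2578 it was at 2304, 1446, 2290 and 2612 CPM. The level was lower in 3 donors, most in R12016, and higher in R14143, and the groups overlapped. Means were 2637 ± 165 and 2163 ± 501 CPM (SD, n = 4). The fitted log2 fold change of CCL2 was -0.32 (SE 0.20, adjusted p = 0.881, edgeR), and -0.10 without R12016. With R02046 exchanged it was -0.19 (SE 0.20, adjusted p = 0.688), and with the exchange and without R12016 it turned to 0.07.

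CCL8, which binds CCR2, varied more between donors. CCL8 levels with uLPS were 2764, 4729, 2201 and 3228 CPM. After MRS2578 they were 1961, 1675, 2321 and 2971 CPM. R12016 had both the highest level, with uLPS, and the lowest, with MRS2578, and R02046 alone was higher with MRS2578. The fit gave a log2 fold change of -0.50 with an SE of 0.28 (adjusted p = 0.878, edgeR). After exchange of R02046 it was -0.54 with an SE of 0.23 (adjusted p = 0.299), and with the labels as deposited but without R12016 it was -0.17.

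CCL7, a further ligand of CCR2, was the least abundant of the 3 per kilobase. Its levels with uLPS were 98.3, 170, 86.4 and 87.2 CPM. With MRS2578, CCL7 was at 86.6, 86.3, 80.8 and 75.5 CPM. The 4 MRS2578 libraries were close together, and only R12016 stood above them by much with uLPS. CCL7 was lower in all 4 donors, and the fit gave a log2 fold change of -0.37 with an SE of 0.16 (adjusted p = 0.878, edgeR). Without R12016 it was -0.16.

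CCL3, a ligand of CCR1 made by activated macrophages, was lower with MRS2578 in all 4 donors. From R07110 to R14143 in the order above, CCL3 was at 2080, 2940, 2302 and 2699 CPM with uLPS. It was at 1831, 1443, 1954 and 1928 CPM with MRS2578. Every MRS2578 library was below every uLPS library, which was so for 0.412% of all genes tested and for no other of the 9. Means were 2505 ± 387 and 1789 ± 237 CPM (SD, n = 4). Of the variance of log2 CPM of CCL3, 62.8% lay between conditions and 7.12% between donors. The log2 fold change was -0.48 (SE 0.18, adjusted p = 0.878, edgeR) and was -0.30 without R12016. With R02046 exchanged the groups overlapped and it was -0.36 (SE 0.19, adjusted p = 0.399). With the exchange and without R12016 it was -0.14 (SE 0.15).

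CCL5, also a ligand of CCR1 and an attractant of T cells, differed widely between donors. In the same donor order it was at 1336, 3123, 892 and 1112 CPM with uLPS. With MRS2578 it was at 809, 1537, 1179 and 698 CPM. Within R07110, R12016 and R14143 the level with MRS2578 was 0.606, 0.492 and 0.627 times that with uLPS, whereas R02046 had 1.32 times as labelled. Donors accounted for 65.7% of the variance of log2 CPM of CCL5, and the groups overlapped.

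Of the 9 genes, CCL5 was nearest to the threshold once R02046 was exchanged. As labelled, its log2 fold change had a value of -0.51 (SE 0.24, adjusted p = 0.878, edgeR). It was -0.71 (SE 0.12, adjusted p = 0.0526) with the exchange, and -0.81 (SE 0.14, adjusted p = 0.141) without R02046. With the exchange and no filter on low counts it passed (-0.72, adjusted p = 0.0433). With the exchange and without R12016 it was -0.59 (adjusted p = 0.149), and as labelled without R12016 it was -0.33, so its direction did not rest on R12016.

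**Figure D3:**
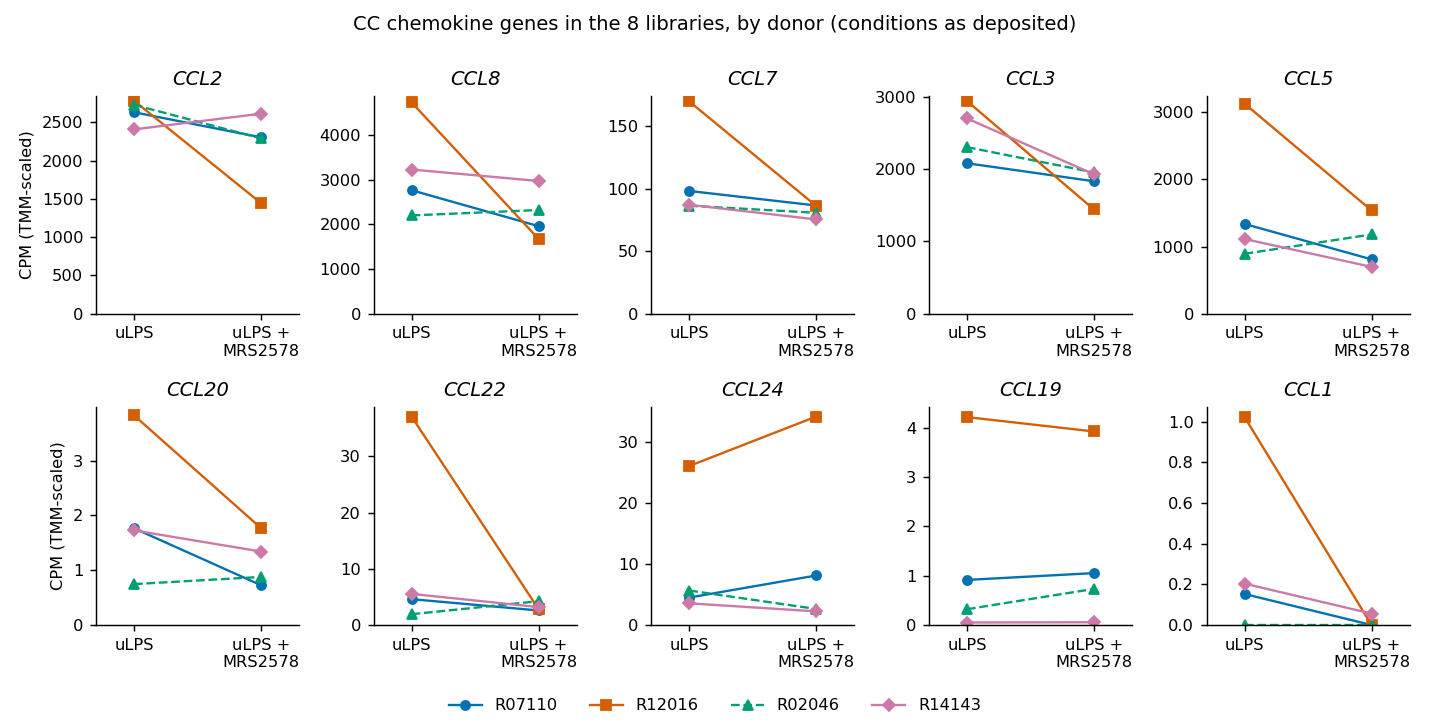
TMM-scaled CPM of each CC chemokine gene (vertical axes, each from 0) with uLPS and with uLPS + MRS2578, with conditions as deposited. Lines join the 2 libraries of a donor, and the dashed line is R02046. All 4 lines slope down for CCL3 and CCL7, and the R12016 line starts highest in every panel.

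The other genes had few counts. CCL20, the ligand of CCR6, had, again from R07110 to R14143, 58, 60, 7 and 34 counts with uLPS, and 18, 28, 12 and 24 with MRS2578. In CPM this was 1.77, 3.83, 0.747 and 1.73 against 0.728, 1.77, 0.878 and 1.34. CCL20 was lower in 3 donors and higher in R02046 as labelled, with overlapping groups. The fit gave -0.77 on the log2 scale with an SE of 0.33 (adjusted p = 0.878, edgeR), and -0.86 with an SE of 0.31 (adjusted p = 0.222) after exchange of R02046.

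CCL22, a ligand of CCR4 made by macrophages and dendritic cells, had the largest fitted difference of the 9 genes and the widest error. CCL22 was at 4.60, 37.1, 1.92 and 5.54 CPM with uLPS. With MRS2578 it was at 2.59, 2.85, 4.24 and 3.19 CPM. The uLPS library of R12016 held 581 counts and its MRS2578 library 45. This donor alone gave a difference of -3.65 on the log2 scale, against -0.80 in R07110, -0.78 in R14143 and 1.1 in R02046. The log2 fold change of CCL22 was -1.19 (SE 0.68, adjusted p = 0.878, edgeR) with all 4 donors and -0.35 (SE 0.39) without R12016.

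With R02046 exchanged, every MRS2578 library was below every uLPS library for CCL22 and for no other of the 9, as for 1.56% of all genes tested. The fit then gave -1.74 on the log2 scale with an SE of 0.49 (adjusted p = 0.147). With the exchange and without R12016, CCL22 was at -0.87 with an SE of 0.24 (adjusted p = 0.304, edgeR). Of 6 markers of mature dendritic cells, CCR7 and LAMP3 were also higher in the uLPS library of R12016 than in the others. CCR7 was at 82.0 CPM there and at 19.8 with MRS2578, and at most at 3.80 in the other donors. LAMP3 was at 4.08 CPM there and at 0.316 with MRS2578, and at most at 1.12 in the other donors. FSCN1, which held most of the summed level, went the other way in R12016, from 171 CPM with uLPS to 235 CPM with MRS2578. There CLEC9A was at 0.0638 and 0.0632 CPM and CD1C at 0 and 0.0632 CPM, and FLT3 was at 0 in all libraries. The summed level of the 6 markers was 257 and 255 CPM in R12016, and over all donors 170 to 282 CPM with uLPS and 216 to 329 CPM with MRS2578. The part of such cells in the CCL22 values was not tested.

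CCL1, a ligand of CCR8, was near the detection limit. It had 5, 16, 0 and 4 counts with uLPS, and 0, 0, 0 and 1 with MRS2578. Summed over donors this was 25 against 1, and the ratio per scaled count was 23.2 with a 95% exact interval of 3.80 to 954 that covers counting error only. R12016 supplied 16 of the 25 counts. A count of 0 allows up to 0.121 CPM in R07110 and 0.190 CPM in R12016 with MRS2578, and up to 0.320 and 0.219 CPM in the uLPS and MRS2578 libraries of R02046. Since both R02046 libraries had 0, their exchange does not change these counts.

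CCL24 and CCL19 did not share the lower values. CCL24, an eosinophil attractant that binds CCR3, was at 4.51, 26.1, 5.66 and 3.56 CPM with uLPS. With MRS2578 it was at 8.13, 34.2, 2.63 and 2.24 CPM, so it was higher in 2 donors and lower in 2. Fitted over all donors, the log2 fold change was 0.00 with an SE of 0.41 (adjusted p = 0.999, edgeR), and after exchange of R02046 it was 0.45 with an SE of 0.25 (adjusted p = 0.418). CCL19, which guides CCR7-bearing cells, had 30, 66, 3 and 1 counts with uLPS and 26, 62, 10 and 1 with MRS2578. Its fitted value was 0.16 on the log2 scale with an SE of 0.31 (adjusted p = 0.954) and turned to -0.09 with the exchange. Without R12016, CCL24 was at -0.10 and CCL19 at 0.39. Donors accounted for 97.9% of the variance of log2 CPM of CCL19 and for 91.7% of that of CCL24.

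**Figure D4:**
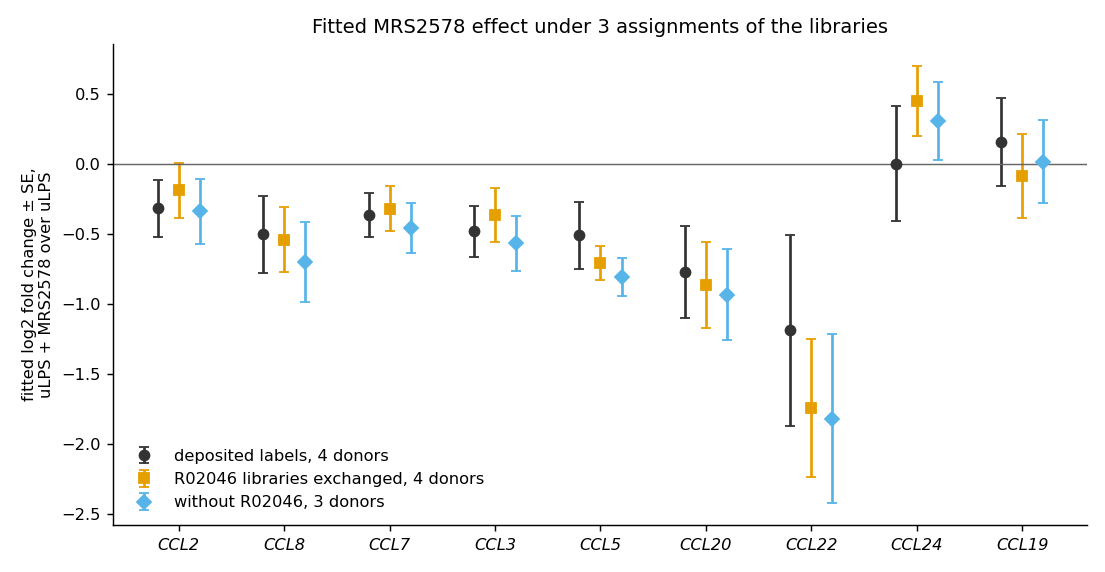
Fitted log2 fold change of uLPS + MRS2578 over uLPS for the 9 CC chemokine genes tested (vertical axis, points; bars are 1 SE), as labelled, after exchange of the R02046 libraries and without R02046. Points of CCL2, CCL8, CCL7, CCL3, CCL5, CCL20 and CCL22 are below 0 in all 3 fits, with the narrowest bar for CCL5 after exchange (SE 0.12).

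Levels of some genes moved together over the 8 libraries. Pearson's r of log2 CPM was 0.91 for CCL7 and CCL22, 0.88 for CCL5 and CCL7, 0.86 for CCL3 and CCL8 and 0.86 for CCL19 and CCL24, and it was -0.06 for CCL2 and CCL5. These values describe 8 libraries that share 4 donors. For every gene tested but CCL24, the uLPS library of R12016 was the highest of the 8. The MRS2578 library of the same donor was the lowest for CCL2, CCL3 and CCL8. Among 7979 other genes with a symbol and a mean of at least 10 CPM, the pattern of CCL5 was most like USP6NL (r = 0.99), IFIT3 (0.99) and EPSTI1 (0.98), the last 2 of which are induced by interferon. The pattern of CCL20 was most like HERC6 (r = 0.995), XAF1 (0.98) and APOBEC3G (0.98). For CCL2 it was B3GALNT1 (r = 0.97), for CCL3 STK3 (0.95), for CCL7 MFSD14B (0.96), for CCL8 SEC61A2 (0.96), for CCL19 ALAS1 (0.99), for CCL22 ARHGEF10L (0.97) and for CCL24 TMEM140 (0.99). These matches were picked as the highest r among all genes compared, and the best match of every gene tested reached at least 0.95. The pattern of CCL20 rests on 7 to 60 counts per library. Shared regulation was not tested.

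Of 16 other CC ligand genes, 13 had a row and 4 were tested, with 0 called. CCL4L1 was the only other abundant one, at 553, 1053, 367 and 518 CPM with uLPS and 490, 541, 362 and 579 CPM with MRS2578. Its log2 fold change was -0.25 (SE 0.19), and -0.01 (SE 0.13) without R12016, and 55.8% of its 50-base windows occurred in transcripts of other genes. CCL13, CCL18 and CCL23 had log2 fold changes of 0.23 (SE 0.27), 0.06 (SE 0.25) and 0.23 (SE 0.46), which were 0.06, -0.02 and -0.05 without R12016. The other 9 were below 2 CPM in every library.

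Receptors for these ligands were measured in the same cells. Of 13 CC and atypical receptor genes, 5 were tested and 0 were called. CCR1, which binds CCL3 and CCL5, was the most abundant, at 213 ± 77 CPM with uLPS and 217 ± 44 with MRS2578 (SD, n = 4; log2 fold change 0.09, SE 0.14). CCR6, the receptor of CCL20, was at 45.0 ± 30.6 and 48.9 ± 30.4 CPM. CCR7, the receptor of CCL19, had a log2 fold change of -0.63 (SE 0.53), with lower values in R12016 and R14143 and higher ones in R07110 and R02046, and without R12016 it was 0.16. CCR2, the receptor of CCL2, CCL7 and CCL8, was at 1.55 ± 1.08 and 1.29 ± 0.88 CPM.

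Genes of transcription factors known to act at chemokine promoters were lower in most cases by fitted value, with 0 called. Of 14, 13 were tested, 11 were lower and 2 higher with MRS2578, with a median log2 fold change of -0.20, and 10 were lower in each of R07110, R12016 and R14143, beside the 19.8% of all genes given above. IRF7, an interferon-induced regulator, was lower in all 4 donors (log2 fold change -0.69, SE 0.16, adjusted p = 0.878, edgeR), and NFATC3 was higher in all 4 (0.20, SE 0.11). NFKB1 and RELA, which encode NF-κB subunits, had log2 fold changes of -0.30 (SE 0.20) and -0.17 (SE 0.12), and of -0.13 and -0.09 without R12016. Both were lower in the same 3 donors as CCL5 and higher in R02046 as labelled. The median over the 13 was -0.09 without R12016. With the exchange it was -0.42, and NFKB1 was at -0.52 (SE 0.10, adjusted p = 0.0628).

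Markers of other cells also varied. The summed level of 8 fibroblast and mural cell markers was 204, 137, 425 and 1266 CPM with uLPS and 292, 265, 581 and 478 CPM with MRS2578. It was higher with MRS2578 in 3 donors and lower in R14143. Over all libraries COL1A1 was at 41.3 to 512 CPM, PDGFRB at 0.255 to 5.13 CPM and RGS5 at most at 0.146 CPM. Summed levels of 4 endothelial markers were 155 to 291 CPM, although CLDN5 and CDH5 among them were at most at 0.202 CPM. For 4 astrocyte markers the sums were 26.0 to 106 CPM, and for 4 oligodendrocyte markers 61.3 to 75.8 CPM. The summed level of 12 microglia and macrophage markers was 4319, 4964, 4002 and 3799 CPM with uLPS and 3712, 4082, 4479 and 3367 CPM with MRS2578. It was lower in R07110, R12016 and R14143 and higher in R02046 as labelled, as were CCL5, CCL8, CCL20 and CCL22. The part of any of these marker lists in the chemokine values was not tested.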

How the data were processed

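RNA was measured in 8 libraries of cultured macaque microglia, 1 per donor and condition. The authors deposited whole-number counts of reads per Ensembl gene, without normalization. The study's methods name fastp, STAR and HTSeq with Mmul_10 and state that only unique reads in exons were counted, while the submitters' processing notes name Trimmomatic 0.30, TopHat2 2.0.14, SAMtools 1.3 and HTSeq 0.6.1p1. The strand setting is not given in the sources used here. A count of 0 allows 3 counts, or 0.0914 to 0.320 CPM.

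Counts were analysed in R 4.3.3 with edgeR 4.0.16: filterByExpr (minimum 10), TMM scaling, a quasi-likelihood test blocked by donor, and p-values adjusted over all genes (Benjamini-Hochberg, threshold 0.05). SE follows from the test statistic, and log2 CPM has a prior count of 2. The 2 libraries of a donor come from the same animal, and their deviations from the condition means correlated at 0.458 to 0.602. Donors are separate animals with 1 culture per condition. The test was tried on simulated data. DESeq2 1.42.0 was an alternative. The genes, the lists and the rule for named genes (all members, listed genes that passed the filter, and the 3 most similar patterns) were chosen with earlier results of these data known, and 1 listed gene is not reported here. RefSeq models of Mmul_10 gave positions and lengths. The study's own list of changed genes, with its fold changes and p-values, was used only to compare library assignments.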

Additional observations from a re-analysis of the deposited data

Results flagged for a closer look

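Dixon's rule for a sample far from the others was applied to 27 groups of 4 values, of which chance flags about 1 in 20. It marked 1 value, the difference of CCL7 between the libraries of R12016. This was -0.976 on the log2 scale, while the other donors lay between -0.208 and -0.0969, and the gap took up 0.874 of the range, above the critical value. The value follows from the uLPS library of this donor, where CCL7 was at 170 CPM, while its MRS2578 library (86.3 CPM) was within the range of the other MRS2578 libraries.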

How the results depend on the processing

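Of the 133 values of the 9 genes under 15 alternatives, 120 kept their direction and their side of the threshold, and 12 changed direction, all of them in CCL2, CCL19 or CCL24. With the R02046 libraries exchanged, 75 genes were called, 86 with no filter on low counts, 39 with edgeR's earlier quasi-likelihood estimation and 5 without R12016. With the deposited labels, DESeq2's Wald test called 1 gene and edgeR's likelihood ratio test 5, against 0 in the main test. CC chemokine genes were called once, CCL5 with the exchange and no filter (1 of 10 genes). Without the donor block, 0 genes and 0 of the 9 were called (250 genes at an unadjusted p under 0.05, against 624 with it), so that the paired fit changed no call, although CCL22 was at -1.95 without it. CCL24 turned negative with size factors from DESeq2 (-0.00353), with its Wald test (-0.0809), the likelihood ratio test (-0.0764), at least 10 counts in every library (-0.0260) and the earlier estimation (-0.0270), and it ran from -0.365 without R07110 to 0.306 without R02046, with -0.103 without R12016. With the exchange, CCL19 was at -0.0893, at -0.0564 also without R12016, at -0.108 with no filter and at -0.171 with the earlier estimation, and CCL2 was at 0.0660 without R12016. At least 10 counts in every library left no value for CCL19 and CCL20. The 4 alternatives that pair the exchange with another choice, or use the earlier estimation, were chosen after seeing the data. The cause of these changes was not tested. Depth limits CCL1, CCL19 and CCL20, which had at most 66 counts in any library.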
